A study of Homo sapiens with 6 samples.

Results

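The epidermal growth factor (EGF) receptor ligands and the ERBB receptors were followed in ONS-76 cells, an established human medulloblastoma cell line, after knockdown of the histone demethylase KDM1A (also called LSD1). The set comprised 10 genes defined by their role and drawn up with results of these arrays known, namely the ligand genes EREG, AREG, HBEGF, TGFA, EGF and BTC, the receptor genes EGFR, ERBB2 and ERBB3, and the receptor inhibitor gene ERRFI1. A probe set was taken where the platform annotation mapped it to exactly 1 of these symbols, which gave 30 of the 54613 probe sets tested and 9 of the 10 genes. No probe set named AREG alone, so AREG was not analysed here. Of the 6 Affymetrix U133 Plus 2.0 arrays, 3 carried RNA of cells transfected with 1 siRNA against KDM1A (siKDM1A) and 3 that of cells given the transfection reagent without siRNA (control), which the paper describes as independent transfections of the same parental line. The labels give harvest at 48 h and the paper a later time. The labels call the target KDM5A with LSD1 beside it, and the paper calls it KDM1A. Since the control cells received no siRNA, loss of KDM1A and delivery of an siRNA cannot be told apart, and the number of arrays limits the precision of every value.

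EGF receptor ligands are made as membrane-anchored precursors, and proteases of the ADAM family release their soluble part. EREG (epiregulin), AREG, HBEGF (heparin-binding EGF-like growth factor), TGFA (transforming growth factor alpha), EGF and BTC (betacellulin) all bind the receptor encoded by EGFR, and epiregulin, HB-EGF and betacellulin also bind ERBB4. Bound receptors pair with one another, ERBB2 having no ligand of its own and ERBB3 only a weak kinase, and signal through adaptors to RAS, ERK and AKT. ERRFI1 binds the kinase domain of EGFR and blocks it. KDM1A removes methyl groups from lysines of histone H3 as part of corepressor complexes.

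Levels below are the RMA values deposited by the authors, in log2 units. RMA corrects the background, sets the arrays to a common distribution and condenses the probes of a probe set into 1 value. A fold change is the siKDM1A mean minus the control mean on this log2 scale, positive where siKDM1A was higher. The groups were compared with limma, p-values were adjusted by the Benjamini-Hochberg method across the 54613 probe sets, and a probe set passed at an adjusted p under 0.05. KDM1A itself read 9.50, 9.57 and 9.49 on control arrays a, b and c and 6.25, 6.34 and 6.31 on siKDM1A arrays a, b and c, and thus fell by 3.22 (SE 0.082, adjusted p = 7.12e-07 in limma), which is 9.33-fold lower. None of the 5 KDM5A probe sets passed (adjusted p from 0.056 to 0.87 in limma, with log2 fold changes from -0.39 to 0.06). Medians of the 6 arrays lay between 5.09 and 5.16, lower quartiles between 3.63 and 3.70, and pairs of arrays correlated at 0.991 to 0.998. Of 14 measured neural and medulloblastoma markers, TUBB3 and SOX2 stood at 11.8 and 10.7 in control cells, whereas OTX2 was below the lower quartile on all arrays and ATOH1 and SYP read 4.96 and 4.91. Some epithelial markers were also high, with KRT18 at 11.9 and KRT8 at 10.6, while EPCAM was below the lower quartile. Among 7 mesenchymal markers, 4 lay above the upper quartile on all arrays, VIM included, and COL1A2 was below the median on all arrays. None of 6 immune and endothelial markers lay above the upper quartile on all arrays. Between the groups, 1 of the 14 neural markers (7.14%) rose and 3 (21.4%) fell, where over all genes 3.45% were higher and 5.46% lower. MAP2, which encodes a microtubule-associated protein of neurons, rose by 1.12 (adjusted p = 0.00030 in limma). ZIC1, ZIC2 and SOX2 fell by 0.39, 0.40 and 0.43 (adjusted p = 0.026, 0.042 and 0.048 in limma). Only 1 of 2 MAP2, 1 of 3 ZIC1 and 1 of 4 SOX2 probe sets passed, and ZIC2 had 1. Of 8 epithelial markers 0 rose and 2 (25%) fell, KRT19 by 0.61 and KRT5 by 0.39 (adjusted p = 0.011 and 0.038 in limma). For KRT19 only 1 of 2 probe sets passed. Of the 6 immune and endothelial markers 1 (16.7%) rose, PECAM1 by 0.35 (adjusted p = 0.035 in limma), and only 1 of its 5 probe sets passed. None of 7 mesenchymal markers passed on its brightest probe set, but 2 of the 5 COL1A1 probe sets were higher. The part of these marker changes in the results below was not tested.

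The increase was seen in ligand genes. EREG, HBEGF and TGFA rose, with log2 fold changes of 2.74, 1.23 and 0.84 on their brightest probe sets. Of the 30 probe sets of the set, 5 rose, 0 fell and 25 did not pass, where over all probe sets 2.18% were higher and 3.73% lower. All 5 belonged to ligands, where 5 of 12 probe sets passed. None of the 17 receptor probe sets passed, nor did the single one of ERRFI1. Counted per gene by its brightest probe set, 3 of 9 genes were higher and 0 lower, against 3.45% and 5.46% of all 19775 genes. As these are RNA from whole cultures, a change in the number of cells that make a transcript and a change in RNA per cell cannot be told apart.

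The stretches of 250 bases before the RefSeq start sites of the 3 ligand genes that rose, and of EGFR, whose 9 probe sets did not pass, are given here so that the sequences beside genes with and without a measured change can be compared. They are from GRCh38.p14 and read 5′ to 3′ on the strand of the gene, ending at the base before the start site. EREG lies on the plus strand (chr4:74364895-74365144), HBEGF on the minus strand (chr5:140346604-140346853), TGFA on the minus strand (chr2:70553827-70554076) and EGFR on the plus strand (chr7:55018767-55019016). Capitals mark every match, on either strand, to an AP-1 site (TGANTCA), a cyclic AMP response element (TGACGTCA), an NF-kB site, a CArG box, a TATA box (TATAAA) or a GC box (GGGCGG, or CCGCCC on the opposite strand).
EREG: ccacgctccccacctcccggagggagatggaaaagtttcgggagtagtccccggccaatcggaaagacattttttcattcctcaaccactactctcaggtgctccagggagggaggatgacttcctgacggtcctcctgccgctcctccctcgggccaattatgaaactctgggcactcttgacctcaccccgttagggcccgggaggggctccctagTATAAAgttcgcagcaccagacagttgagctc
HBEGF: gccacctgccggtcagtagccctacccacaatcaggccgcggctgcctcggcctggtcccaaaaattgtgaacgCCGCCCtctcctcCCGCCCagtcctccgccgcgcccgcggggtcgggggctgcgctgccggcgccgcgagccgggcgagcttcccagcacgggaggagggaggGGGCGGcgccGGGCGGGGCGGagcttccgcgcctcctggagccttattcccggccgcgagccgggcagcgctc
TGFA: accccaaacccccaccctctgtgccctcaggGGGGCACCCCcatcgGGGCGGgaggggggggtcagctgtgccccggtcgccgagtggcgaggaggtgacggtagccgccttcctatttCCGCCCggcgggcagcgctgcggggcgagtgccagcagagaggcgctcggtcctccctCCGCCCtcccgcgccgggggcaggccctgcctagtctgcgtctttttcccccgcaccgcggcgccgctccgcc
EGFR: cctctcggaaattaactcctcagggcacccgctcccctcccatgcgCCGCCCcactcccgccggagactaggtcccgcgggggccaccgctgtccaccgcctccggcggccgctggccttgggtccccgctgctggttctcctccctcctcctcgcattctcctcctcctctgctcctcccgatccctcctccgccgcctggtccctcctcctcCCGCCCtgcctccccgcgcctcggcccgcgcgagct

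No motif searched was found in all 3 ligand windows. The EREG window held a TATA box 32 to 27 bases before the start site, a motif in 10.7% of 35116 promoter windows of this length, and none of the other motifs searched. HBEGF held 5 GC boxes and TGFA 3, and EGFR held 2. The GC box was found in 42.6% of all windows. TGFA also matched NF-kB, as did 9.96% of windows. AP-1, the cyclic AMP response element and the CArG box, found in 6.57%, 1.65% and 1.16% of windows, had no match in these 4. TGFA and EGFR have a further start site each in the RefSeq table. The other TGFA window had no match, and the other EGFR window held AP-1 and TATA boxes. Of the genes not printed, EGF and ERBB2 matched AP-1, BTC matched NF-kB, ERRFI1 matched the GC box and AREG matched the cyclic AMP response element, the TATA box and the GC box. These are matches of letters and not measured binding.

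EREG, which encodes a ligand of EGFR and ERBB4, changed most among the members. The study had already singled it out on these arrays, so its direction is not independent evidence. Its brighter probe set (205767_at) read 6.46, 6.58 and 6.41 on control arrays a, b and c and 9.08, 9.42 and 9.15 on siKDM1A arrays a, b and c. The lowest siKDM1A array lay far above the highest control array, and the spread within either group was small beside the gap. The increase was 6.66-fold (95% interval 5.61 to 7.90, adjusted p = 9.06e-06 in limma), and the log2 fold change stayed between 2.63 and 2.80 under the alternatives, leaving out each array included. The other EREG probe set (1569583_at) lay below the array median on all 6 arrays. It read 4.65, 4.62 and 4.49 in control and 4.92, 4.79 and 4.80 in siKDM1A cells, so that its groups did not overlap either, but its log2 fold change of 0.25 did not pass (adjusted p = 0.16 in limma).

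HBEGF encodes a ligand that is held at the cell surface by heparan sulfate and is itself an early target of growth factor signaling in many cells. Its brighter probe sets, which are separate designs, gave nearly the same change. One (203821_at) read 8.61, 8.53 and 8.47 in control and 9.59, 9.78 and 9.94 in siKDM1A cells, a log2 fold change of 1.23 (SE 0.11, adjusted p = 0.00033 in limma) or 2.35-fold. The other (38037_at) read 8.10, 8.15 and 8.20 in control and 9.29, 9.40 and 9.42 in siKDM1A cells, a log2 fold change of 1.22 (SE 0.085, adjusted p = 0.00013 in limma) or 2.33-fold. On both, every siKDM1A array lay above every control array. The remaining probe sets annotated to HBEGF had log2 fold changes of 0.04 (244857_at, adjusted p = 0.86 in limma) and -0.09 (222076_at, adjusted p = 0.71 in limma). The latter was below the lower quartile on all 6 arrays.

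TGFA, whose product binds EGFR alone among the ERBB receptors, rose by less. Its brightest probe set (205016_at) read 8.99, 9.06 and 9.05 in control and 9.84, 9.97 and 9.81 in siKDM1A cells. The groups were well apart, with a 1.78-fold increase (95% interval 1.56 to 2.04, adjusted p = 0.00080 in limma). The second probe set (205015_s_at) read 6.19, 6.47 and 6.30 in control and 6.79, 6.92 and 6.98 in siKDM1A cells, 1.49-fold higher (adjusted p = 0.011 in limma). That call was lost without control array c (adjusted p = 0.061 in limma) and in a one-way ANOVA, the test named in the methods, computed here with Benjamini-Hochberg adjustment (adjusted p = 0.10). The remaining one (211258_s_at) also had all siKDM1A arrays above the control arrays, with a log2 fold change of 0.26 that did not pass (adjusted p = 0.20 in limma).

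For EGF and BTC the arrays gave little signal. The EGF probe set (206254_at) was below the lower quartile on all 6 arrays and had a log2 fold change of -0.07 (95% interval -0.32 to 0.18, adjusted p = 0.81 in limma). Both BTC probe sets were below the lower quartile as well. One (241412_at) read 2.55, 2.53 and 2.62 in control and 2.95, 2.78 and 3.28 in siKDM1A cells. Its groups did not overlap, but the log2 fold change of 0.44 (95% interval 0.15 to 0.72) did not pass (adjusted p = 0.086 in limma). Without siKDM1A array b it was 0.55 and passed (adjusted p = 0.043 in limma). The other (207326_at) had a log2 fold change of 0.05 (adjusted p = 0.85 in limma).

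**Figure D1:**
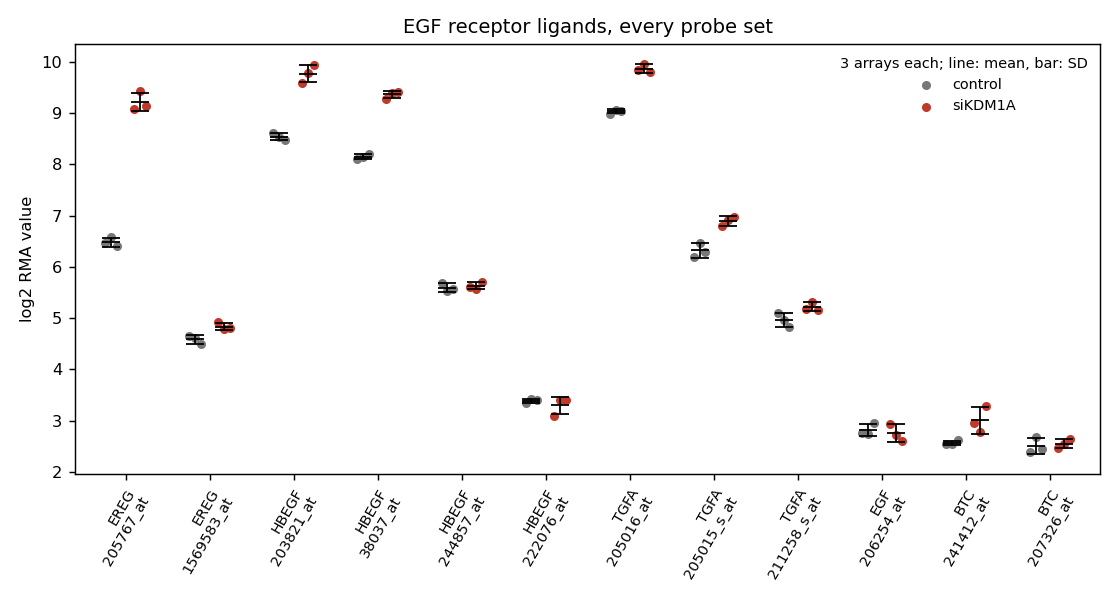
Log2 RMA value (y axis) of each of the 12 ligand probe sets (x axis) on the 3 control and 3 siKDM1A arrays, with the group mean as a line and the SD as a bar. The EREG probe set 205767_at has control arrays between 6.41 and 6.58 and siKDM1A arrays between 9.08 and 9.42, while EGF and BTC lie low on all arrays.

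Transcripts of the receptors gave no call in this test. EGFR, the receptor that all 6 ligands bind, was measured by 9 probe sets, and none passed (log2 fold changes from -0.10 to 0.30). The brightest (201983_s_at) read 8.82, 8.48 and 8.50 in control and 9.08, 8.77 and 7.98 in siKDM1A cells. Array c of the siKDM1A group was the lowest of all 6, whereas arrays a and b were within or above the control range. The log2 fold change was 0.01 with a wide 95% interval of -0.53 to 0.56 (adjusted p = 0.99 in limma), and 0.33 without array c (adjusted p = 0.27 in limma). The next probe sets by level had narrower intervals. 201984_s_at read 8.39, 8.13 and 8.32 in control and 8.43, 8.50 and 8.59 in siKDM1A cells, a log2 fold change of 0.23 (adjusted p = 0.25 in limma). 224999_at read 7.97, 8.15 and 8.08 in control and 8.34, 8.58 and 8.19 in siKDM1A cells, a log2 fold change of 0.30 (95% interval 0.05 to 0.56, adjusted p = 0.18 in limma). On these probe sets every siKDM1A array was above every control array, by a small margin.

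The EGFR probe sets did not move together across the siKDM1A arrays. On 1565483_at the control arrays read 5.23, 5.22 and 5.15 and the siKDM1A arrays 4.78, 5.37 and 6.28. On 1565484_x_at the control arrays read 5.36, 5.05 and 5.20 and the siKDM1A arrays 5.05, 5.32 and 6.10. Array c was thus the highest of the siKDM1A arrays here and the lowest on 201983_s_at. The log2 fold changes of 0.28 and 0.29 did not pass (adjusted p = 0.69 and 0.56 in limma). The part that transcript forms or probe behaviour play in this was not tested. The other 4 EGFR probe sets had log2 fold changes from -0.10 to 0.22 (adjusted p from 0.22 to 0.85 in limma).

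ERBB2, the partner of the other receptors, had 3 probe sets, none of which passed. The brightest (216836_s_at) read 5.96, 5.67 and 5.90 in control and 5.69, 5.61 and 5.75 in siKDM1A cells, with overlapping groups and a log2 fold change of -0.16 (adjusted p = 0.46 in limma). A dimmer one (210930_s_at) read 4.68, 4.43 and 4.06 in control and 5.25, 4.71 and 4.77 in siKDM1A cells, a log2 fold change of 0.52 in the other direction (95% interval 0.11 to 0.93, adjusted p = 0.15 in limma). The third (234354_x_at) differed by 0.10. For ERBB3, which depends on its partners for kinase activity, 1563252_at read 6.03, 5.74 and 5.82 in control and 6.22, 6.07 and 6.21 in siKDM1A cells, a log2 fold change of 0.30 (adjusted p = 0.13 in limma). The other 4 ERBB3 probe sets had log2 fold changes from -0.02 to 0.20, and 226213_at and 202454_s_at were below the lower quartile on all 6 arrays.

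ERRFI1, which encodes a feedback inhibitor of EGFR that rises with receptor signaling in many cells, was above the upper quartile on all 6 arrays. Its probe set (224657_at) read 10.83, 10.97 and 10.94 in control and 10.85, 11.03 and 10.94 in siKDM1A cells. The groups overlapped, with a log2 fold change of 0.03 (95% interval -0.18 to 0.23, adjusted p = 0.92 in limma). The interval bounds an increase at 1.17-fold.

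**Figure D2:**
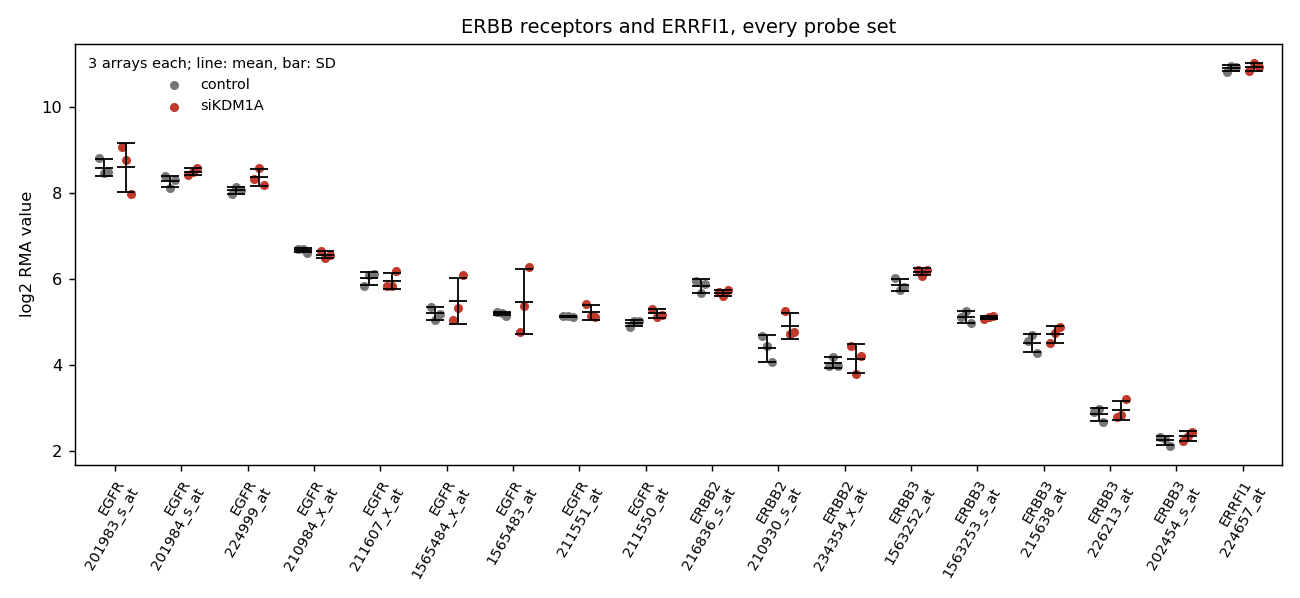
Log2 RMA value (y axis) of each of the 17 receptor probe sets and the ERRFI1 probe set (x axis) on the 3 control and 3 siKDM1A arrays, with the group mean as a line and the SD as a bar. The siKDM1A arrays of EGFR 201983_s_at spread from 7.98 to 9.08 around the control arrays, and ERRFI1 lies between 10.83 and 11.03 on all 6 arrays.

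Set side by side, the median log2 fold change was 0.35 over the ligand probe sets and 0.10 over the receptor probe sets, with 0.01 over all probe sets. With the brightest probe set per gene, the medians were 0.84 over 5 ligand genes and 0.01 over 3 receptor genes. The receptor median is the value of EGFR 201983_s_at, which was 0.33 when siKDM1A array c was left out. All siKDM1A arrays were above all control arrays in 8 of 12 ligand probe sets and in 5 of 17 receptor probe sets, and the reverse order occurred in 0 of the 30. Over the whole table, 11.1% of probe sets had all siKDM1A arrays above and 13.4% had them below. The 95% intervals of the brightest probe sets were 2.49 to 2.98 for EREG, 0.99 to 1.47 for HBEGF and 0.64 to 1.03 for TGFA. All lay above the upper bound of the brightest EGFR probe set (0.56). The EREG and HBEGF intervals also lay above those of all 17 receptor probe sets. The TGFA interval did not, since those of EGFR 1565483_at, ERBB2 210930_s_at and EGFR 1565484_x_at reached 0.95, 0.93 and 0.80. The difference between genes was not itself tested. In the one-way ANOVA computed here with the same adjustment, 4 ligand and 0 receptor probe sets were higher. Over the whole table it called 275 of 54613 probe sets higher, so few calls would be made in 17 probe sets of any kind.

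**Figure D3:**
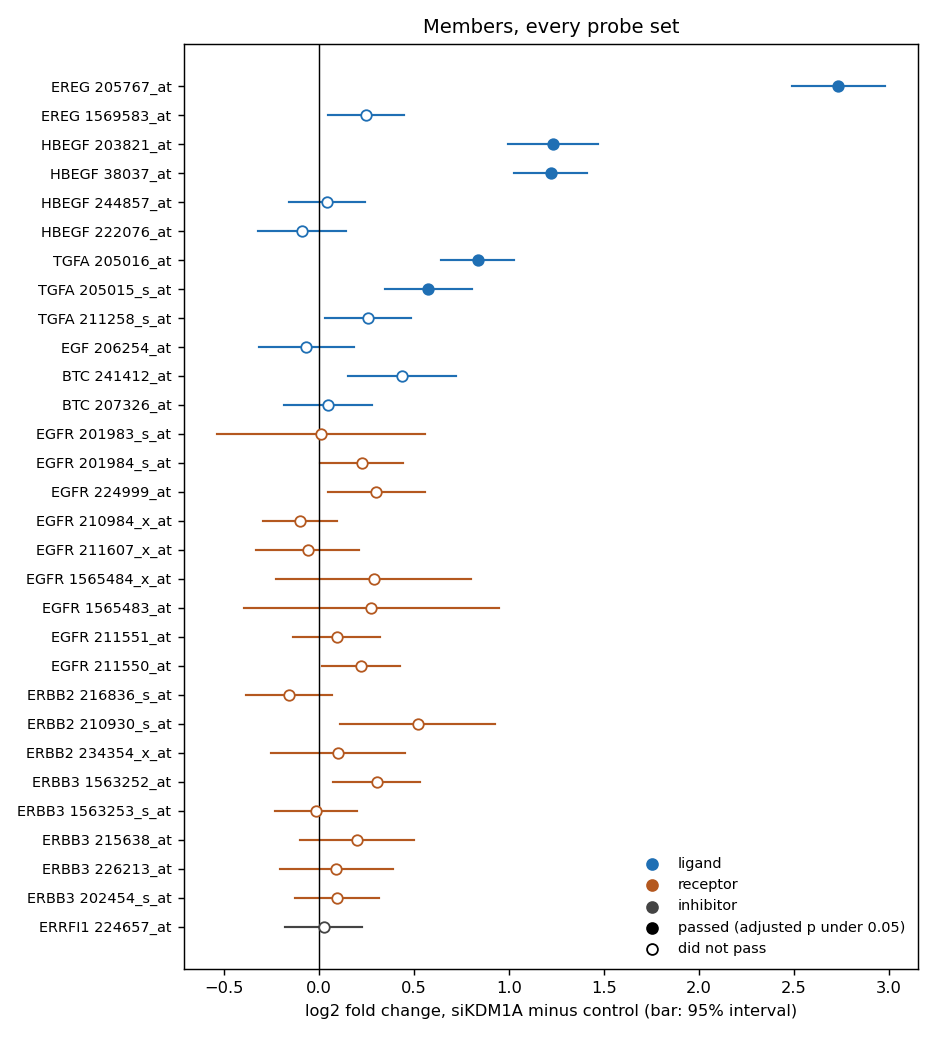
Log2 fold change, siKDM1A minus control (x axis), of all 30 probe sets (y axis), with the 95% limma interval of the single probe set as a bar and colour for the role of the gene. Filled points passed at an adjusted p under 0.05, and all 5 of them are ligand probe sets, from 0.58 for TGFA 205015_s_at to 2.74 for EREG 205767_at.

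The remaining genes of the ERBB system were read from lists, with 1 probe set per gene, the brightest. The lists were set from textbook knowledge, but with earlier results of these arrays known. The neuregulins, ligands of ERBB3 and ERBB4, gave no call. NRG1 was the bright one and read 11.27, 11.36 and 11.40 in control and 11.52, 11.61 and 11.36 in siKDM1A cells, a log2 fold change of 0.15 (adjusted p = 0.44 in limma), and none of its 6 probe sets passed. NRG2, NRG3 and NRG4 had log2 fold changes of -0.01, 0.12 and 0.06 (adjusted p = 0.98, 0.63 and 0.87 in limma). EPGN, the neighbour of EREG, was not analysed here, since no probe set named it alone. ERBB4, the fourth receptor, read 4.87, 4.57 and 5.06 in control and 5.07, 5.52 and 5.32 in siKDM1A cells, and its log2 fold change of 0.47 (95% interval 0.13 to 0.80) did not pass (adjusted p = 0.12 in limma).

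Of 8 genes that release or traffic the ligand precursors, 0 rose, 1 fell and 7 did not pass (median log2 fold change -0.003). The 1 gene is 12.5% of the list, where 5.46% of all genes were lower. ADAM17, the main protease for TGFA, HBEGF and EREG precursors, had a log2 fold change of 0.26 (adjusted p = 0.17 in limma), and ADAM10 one of 0.02 (adjusted p = 0.92 in limma). The brightest ADAM12 probe set had a log2 fold change of -0.04 (adjusted p = 0.86 in limma). However, 1 of the 5 ADAM12 probe sets was called higher. TIMP3, which encodes a tissue inhibitor that blocks ADAM17, fell by 0.61 on the log2 scale (adjusted p = 0.0052 in limma), with levels of 9.59, 9.49 and 9.42 in control and 8.81, 8.98 and 8.89 in siKDM1A cells. Only 1 of its 4 probe sets passed, and the one-way ANOVA did not call it (adjusted p = 0.060).

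Of 21 listed adaptors and members of the RAS-ERK and AKT cascades, 15 were measured, and 0 rose and 0 fell (median log2 fold change -0.10). Of 17 genes that down-regulate ERBB receptors, 1 rose, 1 fell and 15 did not pass (median log2 fold change 0.04). Either count is 5.88% of the list, near the 3.45% higher and 5.46% lower of all genes. SH3KBP1, which encodes the CBL-binding adaptor CIN85 of receptor endocytosis, read 9.03, 8.98 and 9.06 in control and 9.72, 9.69 and 9.64 in siKDM1A cells. It rose by 0.66 (SE 0.081, adjusted p = 0.0022 in limma), and all 3 of its probe sets were higher. LRIG2, a membrane protein of the family of the EGFR antagonist LRIG1, fell by 0.41 (adjusted p = 0.035 in limma), and only 1 of its 4 probe sets passed. That call was lost in 5 of the 6 fits that left out an array, in all but the fit without siKDM1A array c.

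Of 18 transcripts known to rise with EGF receptor and ERK signaling, 7 rose, 0 fell and 11 did not pass (median log2 fold change 0.30, against 0.01 over all genes). This is 38.9% of the list, against 3.45% of all genes. The study had already singled out PLAUR, DUSP5 and JUN on these arrays before the list was set, so their direction is not independent evidence. The count of 7 of 18 includes them. PLAUR, the urokinase receptor gene, read 7.80, 7.80 and 7.80 in control and 9.39, 9.44 and 9.69 in siKDM1A cells, a log2 fold change of 1.71 (adjusted p = 5.00e-05 in limma). DUSP5, which encodes a nuclear phosphatase of ERK, read 7.47, 7.71 and 7.64 in control and 9.20, 9.31 and 9.22 in siKDM1A cells, a log2 fold change of 1.64 (adjusted p = 4.65e-05 in limma). JUN, an AP-1 subunit gene, had a log2 fold change of 1.40 and LIF, a cytokine gene, one of 1.15 (adjusted p = 4.41e-05 and 0.00023 in limma). EGR1, FOS and IER3 rose by 1.12, 0.96 and 0.54, with EGR1 and FOS not called by the one-way ANOVA (adjusted p = 0.059 and 0.16).

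Of the feedback inhibitors of the pathway in this list, DUSP5 passed, whereas DUSP4, DUSP6, SPRY2, SPRY4 and SPRED1 did not. DUSP6, a cytoplasmic phosphatase of ERK, read 11.23, 11.11 and 11.10 in control and 11.21, 11.20 and 11.18 in siKDM1A cells, a log2 fold change of 0.05 (95% interval -0.14 to 0.24, adjusted p = 0.81 in limma). DUSP4 had a log2 fold change of -0.30 (adjusted p = 0.42 in limma). SPRY2 and SPRY4, the Sprouty inhibitors, had log2 fold changes of 0.29 and 0.30 (adjusted p = 0.15 and 0.17 in limma). The ETS factor genes ETV4 and ETV5 had log2 fold changes of -0.34 and 0.09 (adjusted p = 0.64 and 0.71 in limma).

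**Figure D4:**
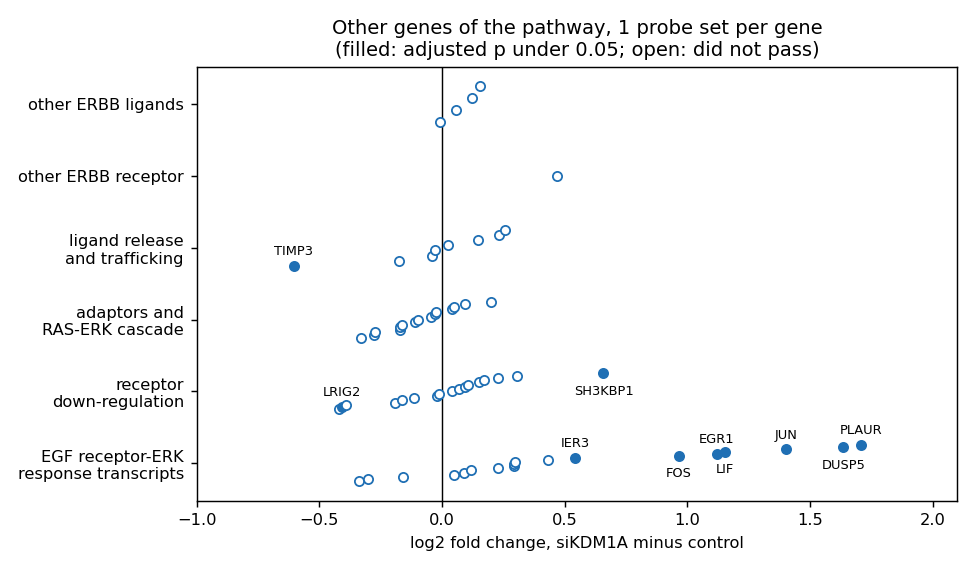
Log2 fold change, siKDM1A minus control (x axis), of the other genes of the pathway by list (y axis), 1 point per gene from its brightest probe set. Filled points passed at an adjusted p under 0.05 and are named. The 7 of 18 response transcripts that passed lie to the right of 0, up to 1.71 for PLAUR, and some open points of that list lie to the right as well. The points of the other lists lie mostly near 0.

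EREG, AREG, EPGN and BTC lie together on chromosome 4, next to a cluster of CXC chemokine genes, so the genes within 1 Mb of either end of EREG were read in the order of the RefSeq annotation of GRCh38.p14. Of 44 other genes in this window, 21 had a probe set of their own. Among these, 8 rose, 0 fell and 13 did not pass, which is 38.1% against 3.45% of all genes, with a median log2 fold change of 0.17. Several of the chemokine genes were known from the study to rise before the window was set. CXCL2 read 6.65, 6.83 and 7.00 in control and 9.38, 9.69 and 9.30 in siKDM1A cells, a log2 fold change of 2.63 (adjusted p = 2.75e-05 in limma). CXCL3, CXCL8 and CXCL5 rose by 2.20, 1.81 and 1.46, CXCL6 by 0.88 and RASSF6, a gene of the Ras association domain family at the far side of the chemokine genes, by 0.82 (adjusted p from 3.88e-05 to 0.0018 in limma).

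The long non-coding RNA gene LOC105377276, between the chemokine genes and EREG, read 5.86, 6.03 and 6.10 in control and 7.24, 7.46 and 7.34 in siKDM1A cells. It rose by 1.35 (adjusted p = 0.00017 in limma). MTHFD2L, a mitochondrial folate enzyme gene, rose by 0.55 on 1 of its 8 probe sets (adjusted p = 0.014 in limma), a call lost without control array a or c. CXCL1 was below the lower quartile on all arrays, with a log2 fold change of 0.01. The chemokine genes PF4V1, PF4 and PPBP did not pass, with log2 fold changes of -0.06, 0.07 and -0.04. On the side away from the chemokines, BTC, PARM1, PARM1-AS1 and LINC02483 did not pass, with log2 fold changes of 0.44, 0.13, -0.03 and -0.03. CXCL1, CXCL2 and CXCL3 are close copies of each other, and the probe sets of CXCL2, CXCL5 and CXCL8 are of a design (suffix _x_at) that can bind related transcripts, so signal shared among them cannot be told apart. Only 1 of 3 CXCL2 probe sets and 1 of 3 RASSF6 probe sets passed.

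**Figure D5:**
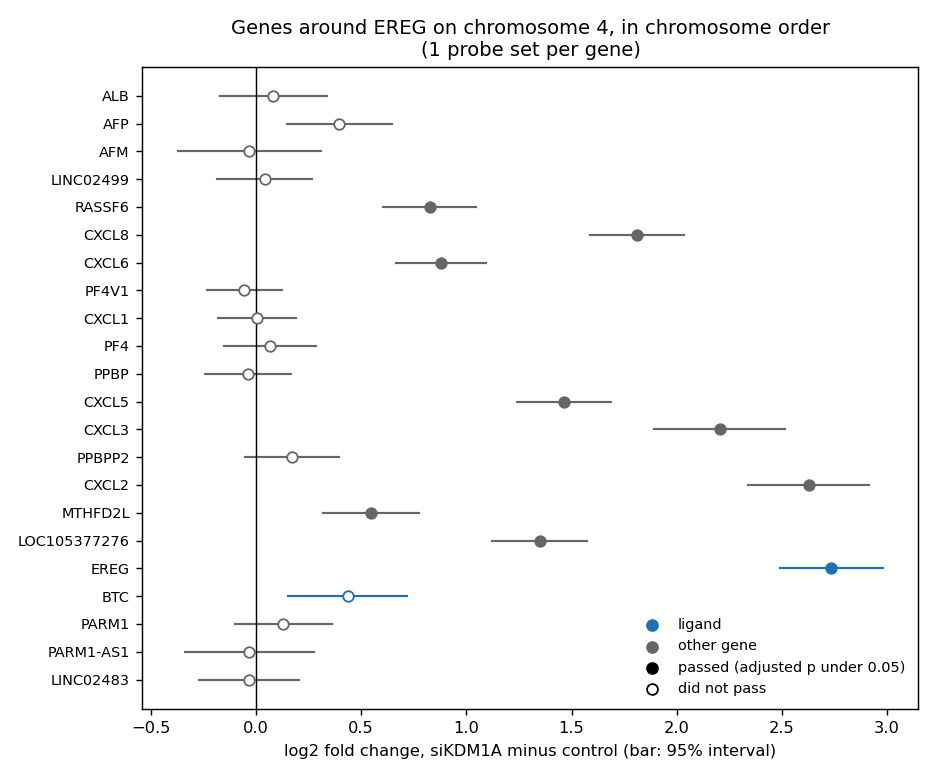
Log2 fold change, siKDM1A minus control (x axis), of EREG and the 21 measured genes within 1 Mb of it on chromosome 4 (y axis, in chromosome order), with the 95% limma interval as a bar. Filled points passed at an adjusted p under 0.05; they run from RASSF6 to EREG, interspersed with chemokine genes that did not pass, and no gene from BTC onward passed.

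The genes whose 6 array values followed those of EREG most closely, each gene taken as differences from its own mean, were BCL2A1, CXCL2, IL13RA2, SPP1 and TCIM. Their root mean square differences from EREG over the 6 arrays were 0.114, 0.142, 0.179, 0.184 and 0.201 on the log2 scale. This measure mostly ranks genes by how near their group difference is to that of EREG, and the genes were not tested as a set. BCL2A1, an anti-apoptotic BCL2 family gene, read 2.95, 2.86 and 2.99 in control, below the lower quartile, and 5.51, 5.74 and 5.70 in siKDM1A cells. CXCL2 is also the member of the chemokine cluster with the change most like that of EREG. The other 4 genes lie outside the 1 Mb window around EREG.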

How the data were processed

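RNA of ONS-76 cells was read on 3 arrays per group. Per the labels and the paper, the authors applied RMA in Partek Genomics Suite (version: not given in the sources used). The log2 values they deposited, for 54675 probe sets, were used unchanged. RMA makes the arrays alike in distribution, so a difference shared by most genes would not be seen. Scanner files were not used, and no probe set was called present or absent.

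After 62 Affymetrix controls were left out, 54613 probe sets entered the test (limma 3.58.1 in R 4.3.3, functions lmFit and eBayes without a trend, two-sided, Benjamini-Hochberg, threshold 0.05). Groups came from the labels. The platform annotation named 1 gene for 41091 probe sets, several for 1801 and none for 11721. A gene outside the 10 members was read from its brightest probe set, by the mean of all 6 arrays. The members and lists were chosen with earlier results of these data known. Named genes were all members, KDM1A, up to 4 called genes per list by the size of the change, all measured neuregulins and ERBB4, called neighbours of EREG and the 5 genes nearest to EREG; further list members and neighbours were named after their values were seen. Promoters were taken from RefSeq (GRCh38.p14) and searched with Python 3.11.15; ERBB3 is not in that table.

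The steps were tested on simulated data. The alternatives comprised cyclic loess, median centring, a filter on probe sets below the median level, an intensity trend with robust prior, a block for the replicate letters, the omission of each array in turn, the one-way ANOVA of the methods (computed here, with Benjamini-Hochberg adjustment added), fold thresholds of 1.5 and 3, and other probe set rules.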

Additional observations from a re-analysis of the deposited data

How the results depend on the processing

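The count of 5 member probe sets called higher was 4 to 6 when 1 array was left out, 5 under median centring, cyclic loess, the filter on dim probe sets and the intensity trend, 4 in the one-way ANOVA of the methods and 4 with a change over 1.5-fold. It was 1, EREG, with a change over 3-fold, since that threshold is above the other changes. No member was called lower under any of these, and the fall of KDM1A kept its direction and passed in all of them. Over all probe sets, 1193 higher and 2037 lower became 609 to 1103 and 694 to 1563 when an array was left out (lowest without control array c), 275 and 401 in the one-way ANOVA, 1048 and 2443 under median centring and 1379 and 1675 under cyclic loess. These scalings shifted the median log2 fold change by -0.03 and -0.01. The 7 response transcripts were 5 to 8 and the 8 neighbours of EREG 6 to 9 under the alternatives other than the fold thresholds, which were applied to the members alone. The list counts that moved by over 1.5 times were of 3 genes or fewer. For example, SH3KBP1 was joined by STAM and LRIG2 was not called under cyclic loess, TIMP3 was not called in the one-way ANOVA or as the mean of its probe sets, and the fallen neural markers (ZIC1, ZIC2 and SOX2 in the main test) were 0 to 1 when an array was left out, where MAP2 was called each time. The 2 fallen epithelial markers were 0 to 2 when an array was left out and 0 in the one-way ANOVA, and PECAM1 was not called without any one of the 6 arrays. The cause was not tested.

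The letters a, b and c are shared by the groups, but deviations of same-letter arrays correlated at 0.11, 0.23 and -0.13, so the letters were not taken to pair the arrays. With the replicate block, 6 member probe sets were higher and 0 lower, the added one being ERBB2 210930_s_at (limma adjusted p = 0.045), and over all probe sets 1080 were higher and 1639 lower.

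Each group has 3 arrays, and the values of EGF, BTC and part of ERBB3 lie below the lower quartile of the arrays, where a change is poorly measured. As a measure of RNA quality, the ACTB control probes were read at both ends, and the 3′ value minus the 5′ value was 0.72 to 1.41 in siKDM1A and 0.86 to 1.43 in control arrays on the log2 scale, and for GAPDH 0.12 to 0.28 and 0.14 to 0.25.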
